A study of Mus musculus with 6 samples.

Results

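The genes described here handle glutamine and ammonia in the liver lobule. They are Glul, Rhbg, Slc1a2 and Oat, known from the hepatocytes around the central vein (pericentral), Gls2, known from the hepatocytes around the portal vein (periportal), the glutamine carrier gene Slc38a3 and the glutamate dehydrogenase gene Glud1. They were chosen by name, and all 7 were found among the 24318 genes of the deposited table. Whole liver RNA was sequenced from C57BL/6 mice that all carried VEcadCreERT2, a tamoxifen-activated Cre recombinase under the promoter of the endothelial gene of VE-cadherin, and TAK1flox/flox, loxP-flanked alleles of the kinase gene Map3k7. The 3 knockout livers came from tamoxifen-injected mice and the 3 control livers from mice that received no treatment, so deletion and tamoxifen cannot be told apart. The labels name triplicates and give no sex, age, dose or interval, and p-values measure the spread between these libraries, which may be in part technical.

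Periportal hepatocytes release ammonia from glutamine with the liver glutaminase Gls2 and turn it into urea. Pericentral hepatocytes take up the ammonia that escapes, through the ammonium channel Rhbg, and bind it to glutamate with the glutamine synthetase Glul. That glutamate comes in through the transporter Slc1a2 or is made from ornithine by Oat and from 2-oxoglutarate by Glud1. Wnt ligands from central vein endothelium maintain the pericentral programme, of which Glul is a classic target.

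Promoter windows are shown for 3 genes because Glul and Slc1a2 both fell while Oat, of the same pericentral zone, did not pass the test. RefSeq windows (GRCm38.p6, not the authors' build mm9) matched 4 of the 7 genes, and the 250 bases before each start are printed in the direction of transcription. Capitals mark matches on either strand to CTTTGAT, the core letters bound by the TCF/LEF partners of beta-catenin, to CCAAT or to TATAAA. These motifs do not overlap one another in the windows shown. The window of Glul is chr1:153899679-153899928 (plus strand), that of Slc1a2 is chr2:102706188-102706437 (plus strand), and that of Oat is chr7:132576399-132576648 (minus strand).
Glul: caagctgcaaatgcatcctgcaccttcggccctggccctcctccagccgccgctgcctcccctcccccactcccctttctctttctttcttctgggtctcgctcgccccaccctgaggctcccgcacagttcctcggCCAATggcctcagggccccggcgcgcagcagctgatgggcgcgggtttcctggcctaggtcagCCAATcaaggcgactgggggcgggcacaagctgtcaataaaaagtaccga
Slc1a2: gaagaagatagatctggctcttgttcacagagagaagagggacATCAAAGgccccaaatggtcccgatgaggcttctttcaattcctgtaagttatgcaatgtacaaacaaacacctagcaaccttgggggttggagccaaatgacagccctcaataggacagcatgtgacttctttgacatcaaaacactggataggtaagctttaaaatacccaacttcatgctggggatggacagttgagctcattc
Oat: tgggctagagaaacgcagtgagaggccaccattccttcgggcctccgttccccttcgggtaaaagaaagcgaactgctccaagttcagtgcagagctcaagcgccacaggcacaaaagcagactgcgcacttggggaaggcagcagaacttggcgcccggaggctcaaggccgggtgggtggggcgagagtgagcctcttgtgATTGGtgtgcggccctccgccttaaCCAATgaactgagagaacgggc
CTTTGAT was found once, on the reverse strand of the Slc1a2 window, 207 to 201 bases before the start. It occurs in 3.21% of 32817 windows of the same length. CCAAT was found 2 times in the Glul window and 2 times in the Oat window, and occurs in 33.8% of windows. TATAAA, present in 12.4% of windows, was in none of the 3. The Slc1a2 start used here lies 47779 bases inside the gene as GENCODE draws it, and which start the liver transcripts used was not measured. Bases outside these windows were not searched, and a link between the motifs and the changes was not tested.

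The unit is FPKM, which divides fragments by the length of the transcript and the size of the library. Levels can thus be roughly compared between genes of a library. Between libraries they can be compared only as far as the scaling of the libraries holds. The number of fragments per library is not given. Steps between low values put the worth of 1 fragment at 0.918 to 1.08 times that of control 1. Alb, the albumin gene, was not tested because all 3 controls list it at 0, which can be a failed estimate. A gene was called at an adjusted p under 0.05 (limma on log2(FPKM + 0.5), Benjamini-Hochberg over 11842 genes). By that rule 27.0% of all tested genes were called, 14.1% higher and 13.0% lower. Of the calls, 52.1% were in the higher direction as deposited, against 39.5% with equal summed FPKM, a scaling under which the median over all tested genes was -0.11 on the log2 scale. Map3k7 measured 7.35 to 9.31 FPKM over all 6 libraries, and since other liver cells also express it this does not check the labels.

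Of the 7 genes, 6 were lower in knockout livers and none was higher (limma, also 0 at an unadjusted p under 0.05). Glul was reduced most, followed by Rhbg, Gls2, Slc1a2 and Slc38a3, and Glud1 was reduced least. Oat did not pass the test. FPKM did not overlap between the groups for 6 of the 7 genes, as for 43.5% of all tested genes. The exact two-sided permutation p was 0.1 for each of those 6 genes, the smallest that 3 against 3 libraries can give. Groups that do not overlap always give this value, so it adds nothing to their separation.

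Glul (ENSMUSG00000026473, chromosome 1, 153899944 to 153909723 in GENCODE's GRCm38) encodes the enzyme that joins ammonia to glutamate. Control libraries 1 to 3 held 281, 300.2 and 276 FPKM, and knockout libraries 1 to 3 held 35.6, 54.4 and 40.2 FPKM. Every knockout library was far below every control library. The mean fell from 286 ± 12.9 to 43.4 ± 9.79 FPKM (SD, n = 3), which is 15.2% of control, with a log2 fold change of -2.73 ± 0.17 (SE, adjusted p = 2.35e-05). Of all tested genes, 0.220% had a larger fall. The gene stood at place 228 among tested genes ordered by mean FPKM in control livers and at place 1207 in knockout livers. GENCODE lists a processed pseudogene, Glns-ps1, with 96.8% identity over 1126 bases, and reads that fit both could be split or lost.

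Rhbg (ENSMUSG00000104445, chromosome 3, 88242874 to 88254709) encodes an ammonium channel of the Rh family. Control libraries 1 to 3 held 7.01, 11.5 and 6.70 FPKM, and knockout libraries 1 to 3 held 2.55, 0.258 and 3.15 FPKM. Groups did not overlap, but control 2 and knockout 2 stood apart from the others of their groups. The mean went from 8.42 ± 2.71 to 1.99 ± 1.53 FPKM (SD, n = 3), a log2 fold change of -2.09 ± 0.53 (SE, adjusted p = 0.0173). The log2 fold change was -1.38 without knockout 2, and the call was lost without control 2 (-1.85, adjusted p = 0.0685, the alternatives together giving 0.00743 to 0.0685). GENCODE's overlapping gene Gm38392 shares 1190 exon bases with Rhbg on the same strand, so their reads cannot be told apart there.

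Slc1a2 (ENSMUSG00000005089, chromosome 2, 102658659 to 102790784) encodes the glutamate transporter GLT-1. Control libraries 1 to 3 held 19.0, 18.3 and 21.9 FPKM, and knockout libraries 1 to 3 held 5.09, 5.77 and 8.55 FPKM. Every knockout library was below every control library. The mean fell from 19.8 ± 1.93 to 6.47 ± 1.84 FPKM (SD, n = 3), with a log2 fold change of -1.57 ± 0.20 (SE, adjusted p = 0.000761).

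Oat (ENSMUSG00000030934, chromosome 7, 132557478 to 132576398) encodes the ornithine aminotransferase, which makes glutamate semialdehyde from ornithine. Control libraries 1 to 3 held 629, 486 and 471 FPKM, and knockout libraries 1 to 3 held 563, 539 and 568 FPKM. The knockout libraries lay inside the range of the controls. The log2 fold change was 0.09 ± 0.15 (SE, adjusted p = 0.718) with a 95% interval of -0.26 to 0.43, and the exact permutation p was 0.5. With equal summed FPKM the value was -0.034 (adjusted p = 0.883). That interval lies above the intervals of Glul (-3.10 to -2.35), Rhbg (-3.28 to -0.90) and Slc1a2 (-2.03 to -1.11), the other pericentral genes described.

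**Figure D1:**
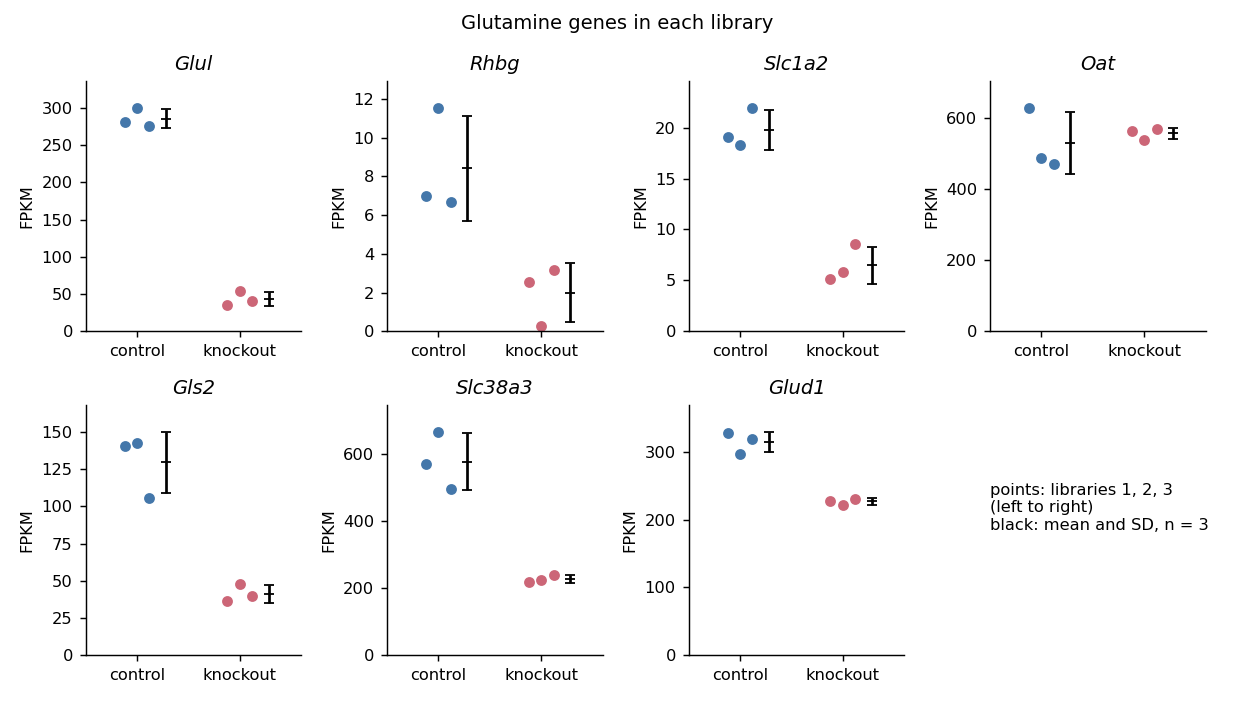
FPKM of the 7 glutamine genes (1 panel each, linear axis from 0) in control and knockout libraries 1 to 3, with the mean and SD of each group in black (n = 3). Groups are apart in every panel but that of Oat, where knockout libraries at 539 to 568 FPKM lie between controls at 471 to 629 FPKM.

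Gls2 (ENSMUSG00000044005, chromosome 10, 128194457 to 128210004), the liver-type glutaminase of periportal hepatocytes, was also lower. Control libraries 1 to 3 held 141, 143 and 106 FPKM, and knockout libraries 1 to 3 held 36.1, 47.9 and 39.5 FPKM. All knockout libraries were below all controls. The mean fell from 129.8 ± 20.7 to 41.2 ± 6.06 FPKM (SD, n = 3), with a log2 fold change of -1.64 ± 0.17 (SE, adjusted p = 0.000259).

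Slc38a3 (ENSMUSG00000010064, chromosome 9, 107650634 to 107669530) encodes SNAT3, a sodium-coupled carrier that moves glutamine across the hepatocyte membrane. The controls, in the same order, held 571, 668 and 496 FPKM, and knockout libraries 1 to 3 held 218, 224 and 239 FPKM. The knockout libraries lay close together, well below the controls. The mean fell from 578 ± 86.4 to 227 ± 11.2 FPKM (SD, n = 3), with a log2 fold change of -1.34 ± 0.15 (SE, adjusted p = 0.000386).

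Glud1 (ENSMUSG00000021794, chromosome 14, 34310727 to 34345265) encodes the mitochondrial enzyme that interconverts glutamate and 2-oxoglutarate with ammonia. Controls 1 to 3 held 328, 298 and 320.3 FPKM, and knockout libraries 1 to 3 held 228, 223 and 232 FPKM. Both groups were tight and did not overlap, with a mean of 316 ± 15.4 in control and 227 ± 4.49 FPKM in knockout livers (SD, n = 3). The log2 fold change was -0.47 ± 0.12 (SE, adjusted p = 0.0197), and 20.3% of all tested genes had a larger fall. This call was lost under 6 of 18 alternatives, among them each of the fits without control 1, control 2 or knockout 1 (adjusted p of 0.0547 to 0.0758) and quantile normalization, where the log2 fold change was -0.21 (adjusted p = 0.244, the alternatives together giving 0.00658 to 0.244). The processed pseudogene Glud-ps has 97.6% identity with Glud1 over 656 bases.

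**Figure D2:**
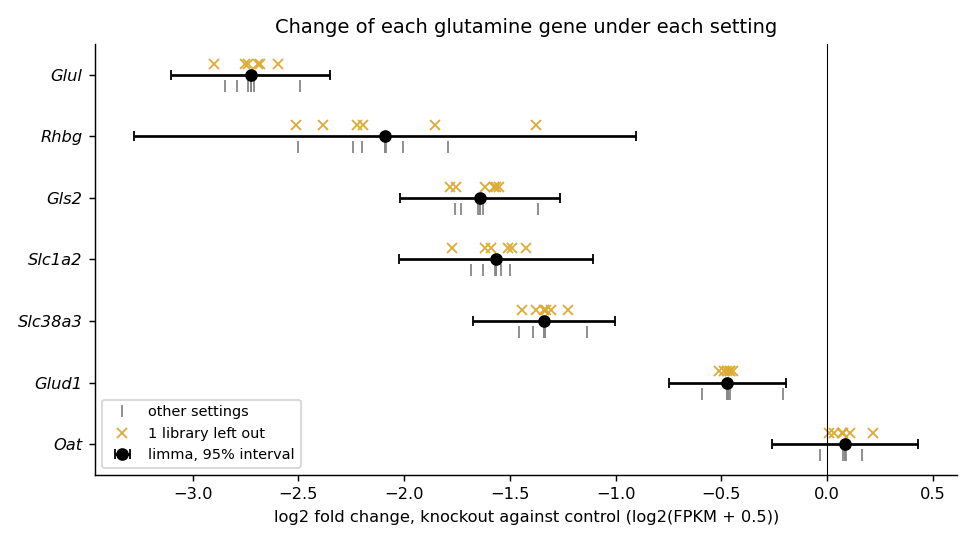
Log2 fold change of knockout against control on the log2(FPKM + 0.5) scale for each glutamine gene, with its 95% interval (black), the values with 1 library left out (crosses) and the values under the other settings (ticks). Glul lies furthest from 0 at -2.73, Rhbg has the widest interval (-3.28 to -0.90), and the interval of Oat includes 0.

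In control livers Oat and Slc38a3 were the most abundant of the 7 transcripts, and their ranges overlapped (471 to 629 and 496 to 668 FPKM). Glud1 and Glul came next with ranges that touched (298 to 328 and 276 to 300.2 FPKM). Gls2, Slc1a2 and Rhbg followed, each apart from its neighbours in the order. In knockout livers Oat stood alone at the top. Slc38a3 and Glud1 then overlapped (218 to 239 and 223 to 232 FPKM), as did Glul and Gls2 (35.6 to 54.4 and 36.1 to 47.9 FPKM).

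Ratios within a library do not depend on how libraries were scaled to one another. The ratio of Glul to Gls2, synthesis over breakdown of glutamine, was 1.99, 2.11 and 2.61 in control and 0.986, 1.14 and 1.02 in knockout libraries. Glul RNA was thus above Gls2 RNA in every control library and close to it in every knockout library. The ratio of Glul to Oat was 0.447 to 0.617 in control and 0.0633 to 0.101 in knockout libraries. Slc1a2 also went down relative to Oat, from 0.0303 to 0.0466 in controls to 0.00903 to 0.0151 in knockouts. The ratio of Slc38a3 to Glud1 was 1.55 to 2.24 in control and 0.955 to 1.03 in knockout libraries. None of these ratios overlapped between the groups, and they are given without a test.

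**Figure D3:**
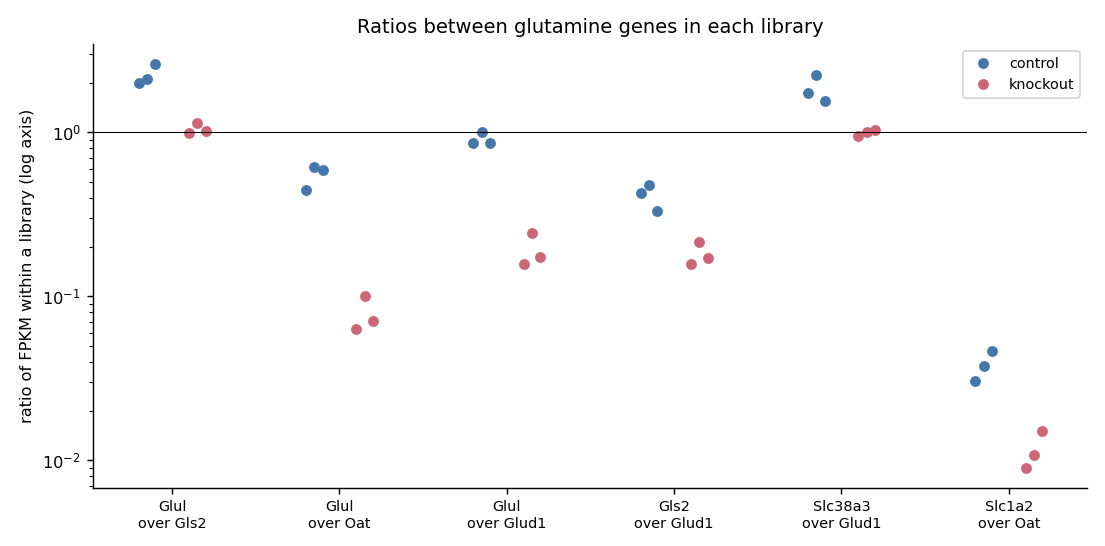
Ratio of the FPKM of pairs of glutamine genes within each library (log axis, 1 point per library, control and knockout side by side). The ratio of Glul to Gls2 lies at 1.99 to 2.61 in the controls and at 0.986 to 1.14 in the knockouts.

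The genes with the profile most like each of the 7 over the 6 libraries were found by the root mean square difference between log2(FPKM + 0.5) values, each centred on its own mean. For Glul they were Oit3 (0.237), which is among the sinusoidal endothelium markers, Cyp7a1 (0.259), the rate-limiting enzyme of bile acid synthesis, and Hal (0.305), the periportal histidine ammonia lyase. Those nearest to Gls2 were Sds (0.0959), the serine dehydratase of periportal hepatocytes, Ackr2 (0.117) and the histidine degradation gene Amdhd1 (0.135). Slc38a3 lay nearest to Sirt3 (0.0573), Eci1 (0.0823) and Serpinf1 (0.0872), and Slc1a2 to Acsf2 (0.129), Mmp15 (0.143) and Decr2 (0.150). Sirt3 encodes a mitochondrial deacetylase, and Eci1 and Decr2 encode enzymes of unsaturated fatty acid oxidation. Rhbg had Fdft1 (0.250), Cml2 (0.290) and Atat1 (0.292) as its nearest. The profiles of Glud1 and Oat were matched most closely by Apeh (0.0347) and Lhpp (0.0388). No member was among the 3 nearest of another, and the closest pair of members was Gls2 and Slc38a3 (0.207). With 6 libraries in 2 groups, this likeness includes the difference between the groups.

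Other enzymes of glutamine and glutamate were mostly lower. Of 23 in the table, 19 were tested, 10 fell, 1 rose and 8 were not called, with a median log2 fold change of -0.68 against -0.00071 over all tested genes, and 6 fell under quantile normalization. The proline dehydrogenases Prodh and Prodh2, which start the path from proline and hydroxyproline, fell from 91.4 ± 6.87 to 36.8 ± 14.2 FPKM (adjusted p = 0.00279) and from 85.7 ± 9.48 to 33.9 ± 5.32 FPKM (adjusted p = 0.000483; SD, n = 3). The omega-amidase Nit2, which acts on the keto acid of glutamine, fell from 137 ± 6.17 to 66.2 ± 22.1 FPKM (adjusted p = 0.00802), a call lost under quantile normalization. The gene that rose was Psat1, the phosphoserine aminotransferase that uses glutamate in serine synthesis, at 0.210 to 0.777 FPKM in control and 2.42 to 3.15 FPKM in knockout libraries (adjusted p = 0.00211).

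Among carriers more genes rose than fell. Of 23 genes of glutamine, glutamate and ammonium carriers in the table, 16 were tested, 5 rose, 2 fell and 9 were not called, with a median log2 fold change of 0.53. Slc1a4, a neutral amino acid exchanger that carries alanine, serine and cysteine, stood at 3.02, 2.32 and 2.99 FPKM in the controls, against 19.4, 11.5 and 20.1 FPKM in the knockouts (adjusted p = 0.000233). All knockout libraries were several times above the controls. The neutral amino acid carrier Slc7a8 and the glutamine carrier Slc38a1 rose from 2.96 ± 0.999 to 9.17 ± 1.41 FPKM (adjusted p = 0.00197) and from 0.628 ± 0.392 to 2.44 ± 0.311 FPKM (adjusted p = 0.00768; SD, n = 3). Slc25a22, which brings glutamate into mitochondria, fell from 96.5 ± 18.5 to 34.2 ± 5.82 FPKM (adjusted p = 0.000594). Also called, and named after their values were seen, were Slc7a5 and Slc7a6 (higher) and Slc38a4 (lower), each of which lost its call under at least 6 alternatives. The other ammonium channel gene of epithelia, Rhcg, was listed at 0 in all libraries.

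Of the tested enzymes that transfer the amide group of glutamine, 15.4% were called, beside 27.0% of all tested genes. In so short a list these shares differ by few genes. Of 13 tested, 1 rose, 1 fell and 11 were not called, with a median of 0.02. Gatb, of the mitochondrial transamidase, fell from 12.9 ± 1.64 to 5.54 ± 1.32 FPKM (SD, n = 3, adjusted p = 0.00281). The asparagine synthetase Asns measured 0 to 0.443 FPKM in control and 0.520 to 2.56 FPKM in knockout libraries (adjusted p = 0.0426, up to 0.139 over the alternatives, 8 of which lost the call).

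The urea cycle, the periportal route for the ammonia that Gls2 releases, was lower in part. Of 10 genes in the table, 9 were tested, 5 fell, 1 rose and 3 were not called, with a median of -0.74, and those that fell numbered 3 under quantile normalization. The mitochondrial carbonic anhydrase Car5a, which supplies bicarbonate, fell from 51.6 ± 4.52 to 12.1 ± 3.40 FPKM (adjusted p = 0.000195). The ornithine carrier Slc25a15 and the ornithine transcarbamylase Otc fell from 175 ± 12.4 to 69.1 ± 6.73 FPKM (adjusted p = 0.000233) and from 158 ± 5.90 to 64.7 ± 7.12 FPKM (adjusted p = 0.000268; SD, n = 3). The argininosuccinate genes Ass1 and Asl, named after their values were seen, also fell, but lost the call under 5 and 7 alternatives. Cps1, which takes up the ammonia, measured 522 ± 25.2 and 397 ± 109 FPKM and did not pass the test (adjusted p = 0.134). Knockout libraries 1 to 3 held 374, 517 and 302 FPKM, of which only knockout 2 lay among the controls (493 to 540 FPKM). Over the alternatives its adjusted p was 0.0208 to 0.380 (limma), so the result for Cps1 depends on the setting. Arg2, the non-hepatic arginase, was the gene that rose, at 0 to 1.37 FPKM in control and 1.84 to 5.06 FPKM in knockout libraries (adjusted p = 0.0467), and its call was lost under 12 alternatives. Relative to Cps1, Gls2 stood at 0.196 to 0.289 in control and 0.0927 to 0.131 in knockout libraries.

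**Figure D4:**
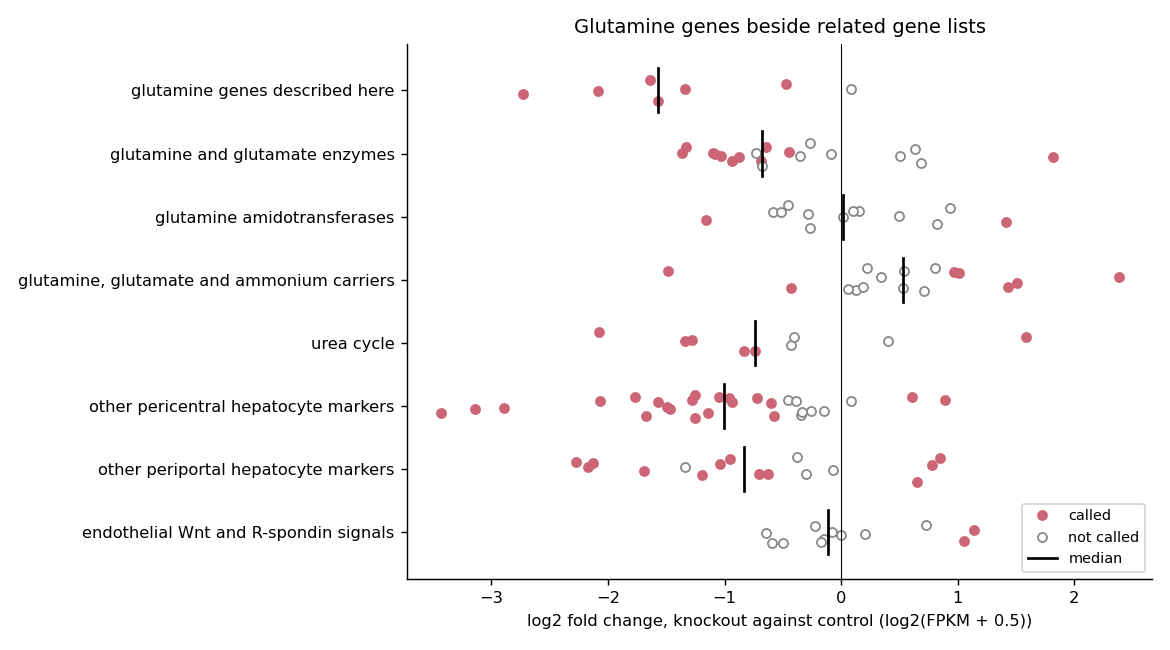
Log2 fold change of each tested gene (1 point per gene, filled where called) in the glutamine genes described and in 7 related lists, with the median of each list as a black bar. Pericentral and periportal marker lists both lie mostly below 0 (medians -1.01 and -0.83), and the carrier list lies mostly above 0 (median 0.53).

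Markers of both zones fell beside the glutamine genes. Of 28 other pericentral markers, 19 fell and 2 rose (median -1.01), and of 16 other periportal markers, 9 fell and 3 rose (median -0.83). The pericentral cytochrome P450 genes Cyp2a5 and Cyp1a2 fell from 322 ± 19.1 to 29.4 ± 1.89 FPKM (adjusted p = 1.35e-06) and from 226 ± 56.4 to 56.2 ± 23.2 FPKM (adjusted p = 0.00177). The periportal amino acid catabolism genes Hal and Sds fell from 144 ± 20.2 to 31.4 ± 3.84 FPKM (adjusted p = 4.86e-05) and from 276 ± 34.7 to 85.6 ± 17.4 FPKM (adjusted p = 0.000259; SD, n = 3). Those that rose, named after their values were seen, were the pericentral Tbx3 and Cldn2 and the periportal Hsd17b13, Cdh1 and Ctsc. Without control 2 none of these 3 periportal genes was called, nor was Cldn2, which also lost its call without control 1 (adjusted p up to 0.0621). Hsd17b13 lost its call without any 1 of the controls.

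Of the tested Wnt pathway genes 16.7% were called, beside 27.0% of all tested genes, shares that differ by few genes in so short a list. Of 12 tested genes of Wnt and R-spondin signals and their receptors, 2 rose (the co-receptor Lrp5 and the ligand-processing gene Porcn), none fell (limma, with 1 at an unadjusted p under 0.05 and 0 to 1 adjusted over the alternatives) and 10 were not called, with a median of -0.11. The call of Porcn was lost under 4 alternatives, among them each of the fits without control 1, control 2 or knockout 2 (adjusted p up to 0.0834). The pericentral ligand genes, singled out after their values were seen, were low. Wnt2 measured 0.433 to 1.20 FPKM in control and 0 to 0.694 FPKM in knockout libraries (adjusted p = 0.337). Wnt9b measured 0.267 to 0.870 FPKM in the controls and 0 to 0.103 FPKM in the knockouts. It was below the mean needed to be tested, and was called lower when no filter was set (adjusted p = 0.0408). Rspo3 measured 2.46 to 2.62 and 1.44 to 3.23 FPKM (adjusted p = 0.723). Of the general beta-catenin targets Axin2, Lgr5, Sp5, Rnf43 and Znrf3 among the pericentral markers, also singled out after their values were seen, Sp5 and Rnf43 fell and the others did not pass the test. Log2 fold changes of Lgr5 and Znrf3 were -0.45 (adjusted p = 0.391) and 0.08 (adjusted p = 0.864). Sp5 went from 0.947 ± 0.383 to 0.149 ± 0.130 FPKM (adjusted p = 0.0359) and Rnf43 from 4.78 ± 0.681 to 2.32 ± 0.753 FPKM (adjusted p = 0.0225; SD, n = 3), calls lost under 5 and 3 alternatives. Axin2 measured 1.95 ± 0.304 FPKM in control and 1.70 ± 0.0738 FPKM in knockout livers (SD, n = 3, adjusted p = 0.676).

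Markers of several other liver cell types differed between the groups, but not those of all. Summed over 11 hepatocyte markers, FPKM was 31153 to 38678 in control and 28388 to 31660 in knockout libraries, which overlapped. Of the 11, 4 fell, Fabp1, Ttr and Hnf4a among them, and 1 rose (Fgb), with a median of -0.39. Hnf4a and Fgb each lost the call under 9 alternatives, including every fit with 1 library left out (limma, adjusted p up to 0.698 and 0.121). Markers of sinusoidal endothelium summed to 185 to 281 FPKM in control and 62.4 to 69.0 FPKM in knockout libraries, with 8 of 12 lower. Those not called, named after their values were seen, were Stab2, Pecam1, Cdh5 and Emcn (limma, adjusted p of 0.401 to 0.484). Neutrophil markers summed to 36.2 to 72.9 and 1705 to 1793 FPKM, with 9 of 9 higher. Monocyte and macrophage markers (569 to 1234 and 1603 to 1766 FPKM, 9 of 12 higher) and stellate cell and fibroblast markers (173 to 217 and 347 to 447 FPKM, 7 of 10 higher) were also higher. Cholangiocyte markers summed to 35.8 to 49.0 and 43.7 to 55.4 FPKM, which overlapped, with 1 higher and 1 lower of 6 tested. Lymphocyte markers summed to 4.11 to 6.63 and 12.7 to 23.8 FPKM, with 3 of 8 tested higher. No marker was at 0 in all libraries. Their part in the results was not tested, and in whole liver RNA fewer hepatocytes of a zone and less RNA per hepatocyte cannot be told apart.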

How the data were processed

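The deposited table holds FPKM per gene, 1 column per library, which the authors made; the values were used as they stand. Trimmomatic 0.33 and TopHat2 2.1.0 are named in the submitters' processing notes, as are build mm9 and the programs Cuffdiff and Cuffnorm (both 2.2.1). Gene annotation, strand setting and scaling between libraries are not given in the sources used here. A TruSeq v2 kit and paired-end reads were used, per the labels' protocols. FPKM are not counts, so no count model or counting interval applies and depth is unknown.

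Groups follow the sample titles. The difference of knockout from control was fitted with limma 3.58.1 in R 4.3.3 (trended eBayes, two-sided) on log2(FPKM + 0.5), which understates changes of low genes, on all genes but Alb whose mean over libraries reached 0.5 FPKM. Each single gene was also tested by exact permutation. The members and lists were chosen with earlier results of these data known. Named from each list were the up to 4 called genes with the largest change, and for each member the 3 nearest profiles, predicted genes left out. Some genes of the lists are not reported here by name. Alternatives were other pseudocounts (0.1 and 1), filters and scalings, leaving out each library, a replicate block, weights per library and other models of the variance. Keeping Alb was added after seeing the data. The fit was tested on simulated data, where it called 60 of 100 genes moved by 1 on the log2 scale and 87 of 100 moved by 2. It also called 9 of 11642 genes that were not moved. Only 100 genes were moved by each amount among 11842, whereas 27.0% of the tested genes were called in the real data. Adjusted p depends on the share of genes that change, so these simulated rates do not carry over to the real data. A gene that was not called may still have changed. Gene places are from GENCODE M21 on GRCm38, near copies from blastn (at least 90% identity over 200 bases), and figures from matplotlib 3.10.9.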

Additional observations from a re-analysis of the deposited data

How the results depend on the processing

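Glul, Slc1a2, Gls2 and Slc38a3 were called lower in all 18 alternatives, with log2 fold changes of -2.90 to -2.49, -1.77 to -1.42, -1.78 to -1.37 and -1.46 to -1.14. Rhbg lost its call without control 2 only (adjusted p = 0.0685), and Glud1 lost its call under 6 alternatives: quantile normalization (0.244), no variance trend (0.0565), the replicate block (0.0564), and without control 1 (0.0758), control 2 (0.0563) or knockout 1 (0.0547). Oat was never called, and its log2 fold change turned to -0.034 with equal summed FPKM (adjusted p = 0.883, within 0.382 to 0.975 for all settings). Of the 7 genes, 4 were called lower without control 2, and 5 or 6 under every other alternative. Over all genes, leaving out 1 library gave 1186 to 1644 higher and 943 to 1497 lower genes (996 without control 1 and 943 without control 2, against 1534), and other settings stayed within 1.5 times; the cause was not tested.

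Called genes of the lists ranged over the alternatives as follows. Enzymes of glutamine and glutamate numbered 6 to 12 lower and 1 to 2 higher, amidotransferases 1 to 2 lower and 0 to 1 higher, and carriers 1 to 2 lower and 3 to 5 higher. Urea cycle genes numbered 3 to 7 lower and 0 to 1 higher, pericentral markers 15 to 19 lower and 1 to 2 higher, periportal markers 7 to 10 lower and 0 to 3 higher, and Wnt genes 0 to 1 lower and 1 to 3 higher. Sinusoidal markers called higher numbered 3 without control 3, against 0. Among hepatocyte markers 0 to 1 were higher, and among cholangiocyte markers 0 to 1 lower and 1 to 2 higher.

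The labels give both groups the numbers 1 to 3. Deviations of same-numbered libraries from their group means were not related (r of -0.0100 to 0.00151 over genes). The labels name no pairing, and with 3 libraries per group these values cannot exclude a shared preparation. With the replicate block 1575 genes were higher and 1385 lower. Exact permutation gave 0.1 for each of the 6 separated genes under every pseudocount and scaling tried, except 0.2 for Glud1 under quantile normalization. Separated groups always give 0.1, and a pseudocount cannot undo a separation, so only the scalings could have altered these values.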
